A study of Mus musculus with 15 samples.

Results

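Intergenic H3K4me3 summits close to genes were examined in the amygdala of wildtype (WT) mice. A summit, the single base at which the peak caller placed the top of a peak, was taken where it lay in no GENCODE M21 transcript, not within 3 kb downstream of a transcript end, and over 1 kb but at most 20 kb from the nearest transcription start site (TSS) on chromosomes 1 to 19 and X. The rule used positions only and found 1436 summits among the 24132 on these chromosomes (5.95%, 95% Wilson interval 5.66 to 6.26), and among 24162 in the whole list. The same rule without the upper limit gave 2271 summits, of which 835 lay beyond 20 kb. Both intergenic sets were read beside 17255 promoter summits, those within 1 kb of a TSS.

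H3K4me3, trimethylation of lysine 4 of histone H3, is placed on nucleosomes beside start sites of transcription, most strongly where the DNA is rich in CpG dinucleotides. The methyltransferase KMT2A is among its writers, and the demethylase KDM5C removes it. Away from annotated start sites the mark is found at unannotated promoters, at strongly active enhancers, whose usual mark is monomethylation of the same lysine, and around genes that RNA polymerase III transcribes, such as tRNA genes.

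The study compared adult male mice of the F1 generation 129xB6, from 129S1/SvImJ fathers and C57BL/6J mothers, in 4 genotypes, WT, Kmt2a-HET, which carry 1 disrupted Kmt2a allele, Kdm5c-KO, which lack the X-linked Kdm5c, and the double mutant (DM) with both lesions. In all, 11 H3K4me3 samples, 2 WT and 3 of each mutant genotype, and 4 inputs were made, each H3K4me3 sample from about 20000 nuclei of dissected amygdala by native chromatin immunoprecipitation. The list analysed here was called on the 2 WT mice together, so it has no spread between replicates, and the mutant samples were not analysed here. All intervals below cover counting error only, the list gives no read count behind a score, and differences between summit sets are described by these intervals without a test. Amygdala tissue holds neurons and glia, and more marked cells cannot be told apart from more of the mark in each cell. Promoter summits were present at 6 of 6 neuronal, 4 of 5 oligodendrocyte, 5 of 5 astrocyte, 5 of 5 microglial and 4 of 4 endothelial marker genes, and at 0 of 10 marker genes of tissues outside the brain.

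The sequences of the highest-scoring intergenic summits show how much CpG lies under them. Each run below is 300 bases centred on the summit, from the plus strand of GRCm38, with every CpG in capitals. The first was 17962 bp upstream of the lincRNA gene Gm26773 (chr14:118089719-118090018, score 296.0, 16 CpGs), the second 19356 bp upstream of the lincRNA gene Gm26779 (chr5:109866725-109867024, score 276.5, 10 CpGs) and the third 9680 bp upstream of Fam83a (chr15:57975589-57975888, score 274.6, 19 CpGs). The score is that of MACS2, taken as −log10 of the q-value for enrichment over input, and each summit is named by the gene of its nearest TSS.
Gm26773: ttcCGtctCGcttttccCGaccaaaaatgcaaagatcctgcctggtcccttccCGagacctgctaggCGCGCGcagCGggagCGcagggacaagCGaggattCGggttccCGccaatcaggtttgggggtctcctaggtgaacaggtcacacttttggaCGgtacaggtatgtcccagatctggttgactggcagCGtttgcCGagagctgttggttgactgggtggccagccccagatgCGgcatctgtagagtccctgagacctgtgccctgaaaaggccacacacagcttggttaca
Gm26779: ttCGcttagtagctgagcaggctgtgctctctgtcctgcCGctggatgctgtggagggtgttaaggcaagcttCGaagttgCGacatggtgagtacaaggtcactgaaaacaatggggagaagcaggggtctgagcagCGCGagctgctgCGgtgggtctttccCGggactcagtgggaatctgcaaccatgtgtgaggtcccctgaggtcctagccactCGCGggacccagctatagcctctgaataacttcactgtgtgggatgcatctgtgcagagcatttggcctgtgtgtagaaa
Fam83a: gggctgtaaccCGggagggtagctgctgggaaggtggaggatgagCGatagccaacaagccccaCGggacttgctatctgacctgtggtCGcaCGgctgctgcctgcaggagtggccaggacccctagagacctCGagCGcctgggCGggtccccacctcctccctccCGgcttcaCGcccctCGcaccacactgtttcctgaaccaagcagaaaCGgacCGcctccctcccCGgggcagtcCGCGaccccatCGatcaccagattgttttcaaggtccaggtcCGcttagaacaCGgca

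The first and the third of these summits, and the fourth and seventh in rank, lay beside tRNA genes that the RefSeq annotation lists and GENCODE transcripts do not include.

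Scores of the 1436 summits were low beside those of promoters, with a long upper tail. Their median score was 17.1 (95% interval 15.5 to 18.8), with quartiles of 7.12 and 49.2 and a range of 1.38 to 296.0. Intergenic summits beyond 20 kb had a median of 12.9 (11.7 to 14.3), and promoter summits one of 165.2 (163.4 to 167.0), so the 3 intervals did not overlap. A score at or above 102.3, the median of the list, was reached by 179 of the summits within 20 kb (12.5%, 10.9 to 14.3), by 5.63% (4.26 to 7.4) of those beyond 20 kb and by 66.2% of promoter summits. At the other end, 34.3% of the summits within 20 kb scored under 10, beside 38.4% beyond 20 kb and 8.7% at promoters.

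**Figure D1:**
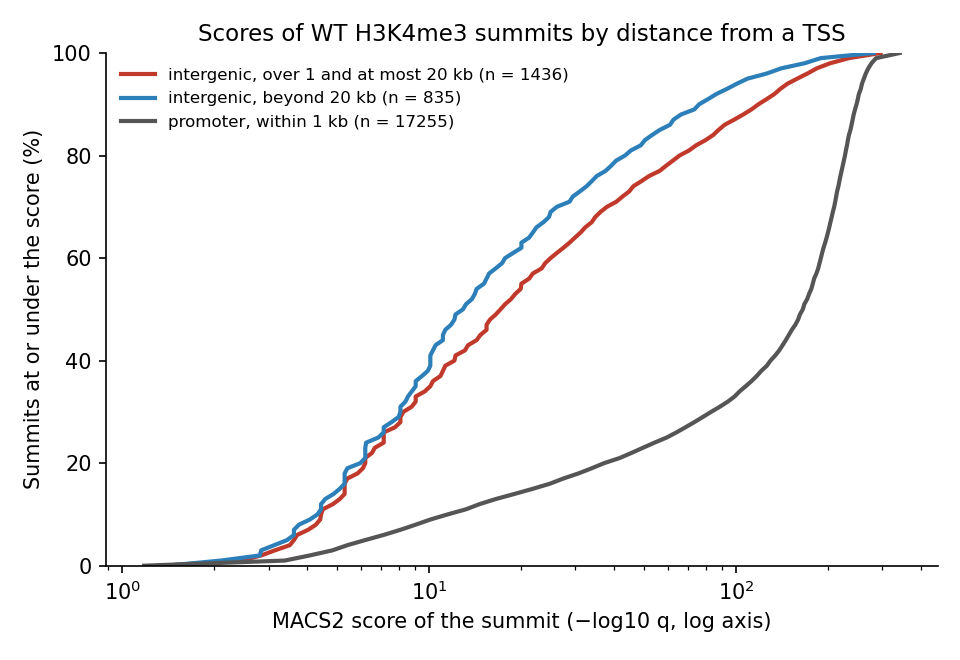
Cumulative share of summits (y axis, %) at or under a MACS2 score (x axis, −log10 q, log scale) for intergenic summits within 20 kb (n = 1436), intergenic summits beyond 20 kb (n = 835) and promoter summits (n = 17255). The curve of summits within 20 kb lies to the right of that beyond 20 kb above a score of about 10 and far to the left of the promoter curve, with medians of 17.1, 12.9 and 165.2.

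The summits thinned out with distance from the TSS. Density was counted per Mb of eligible sequence, meaning all positions that the rule could have accepted, 483.7 Mb in all. It was 4.44 per Mb at 1 to 2 kb (3.68 to 5.31, n = 120), 3.33 at 2 to 5 kb (2.95 to 3.73, n = 288), 3.03 at 5 to 10 kb (2.76 to 3.32, n = 455) and 2.61 at 10 to 20 kb (2.4 to 2.83, n = 573), and beyond 20 kb it was 1.13 per Mb over 739.2 Mb. The nearest distance group exceeded the farthest within 20 kb by 1.7 times (1.4 to 2.07). Scores changed little over the same distances, with medians of 18.3, 20, 17.7 and 15.7 whose intervals overlapped, and a Spearman correlation of −0.0685 between score and distance across the 1436 summits.

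Summits lay upstream of their nearest gene more often than eligible sequence did. Of the 1436 summits 73.1% (70.8 to 75.3) lay upstream of their nearest TSS, beside 66.9% of eligible positions. All 120 summits at 1 to 2 kb were upstream since the rule removes transcripts and 3 kb beyond their ends. At 2 to 5 kb, 90.6% were upstream beside 84.5% of eligible positions, with densities of 3.57 per Mb upstream and 2.01 downstream. At 10 to 20 kb the densities were 2.78 upstream and 2.37 downstream. The excess depended on the noncoding annotation, since with protein-coding transcripts only 77.3% (75.1 to 79.4) of the summits were upstream beside 78.4% of eligible positions.

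Genes whose own promoter carried the mark had more intergenic summits around them. The nearest gene was protein-coding for 681 summits (47.4%, 44.9 to 50), beside 33.6% of eligible positions. Processed pseudogenes, copies of mRNAs returned to the genome, were nearest for 17.8% beside 29.6% of eligible positions, and lincRNA genes for 14.6% beside 13.7%. The nearest gene carried a promoter summit of its own for 607 of the 1436 (42.3%, 39.7 to 44.8) beside 22.5% of eligible positions. Among the 681 with a protein-coding nearest gene the share was 76.2% (72.9 to 79.3), beside 58.6% of the eligible positions nearest to coding genes and 65.2% of all protein-coding genes. Sequence nearest to genes with a promoter summit held 5.57 summits per Mb, and sequence nearest to genes without one 2.21 per Mb. The difference held in each distance group, from 8.81 against 2.66 per Mb at 1 to 2 kb to 4.82 against 2 per Mb at 10 to 20 kb. The scores differed less, with a median of 19.4 (16.1 to 23.3) near genes with a promoter summit and 16 (14.8 to 17.7) near genes without.

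**Figure D2:**
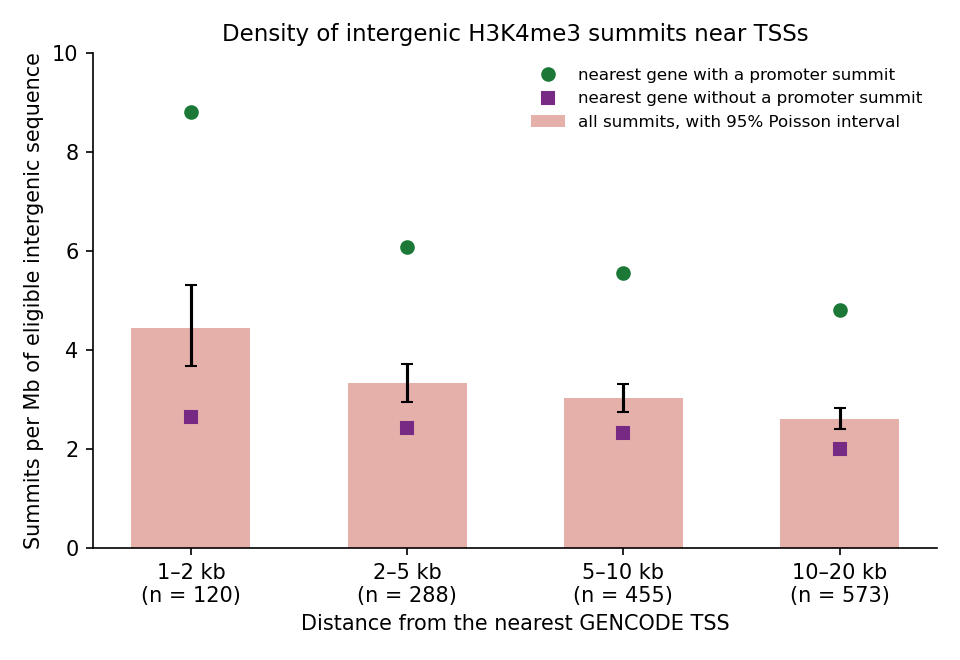
Intergenic summits per Mb of eligible sequence (y axis) in 4 groups of distance from the nearest TSS (x axis). Bars give all summits with 95% Poisson intervals and fall from 4.44 to 2.61 per Mb, circles give sequence nearest to genes with a promoter summit and squares sequence nearest to genes without one, and the circles lie above the squares in all 4 groups.

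Other summits lay closer to the intergenic summits within 20 kb than to those farther out, and promoter summits are nearer to them by the rule itself. Another summit lay within 2 kb of 13.2% (11.5 to 15) of them, beside 10.1% (8.2 to 12.3) beyond 20 kb, with overlapping intervals, and 20.6% at promoters. With the whole list cut at a score of 10, so that weaker neighbours were not counted, the share within 2 kb was 8.59%. Against the full list it was 16.4% under a score of 10, 14.3% at 10 to 30 and 7.62% at 30 to 100. It was 14.1% at 100 to 150 and 8.43% above 150. Another summit lay within 5 kb of 26.1% (23.9 to 28.4) of the summits within 20 kb and 11.6% (9.62 to 14) of those beyond. The median distance to the nearest other summit was 12464.5 bp, against 43051 bp beyond 20 kb. The summits had 1268 different nearest genes, of which 1123 had 1, 125 had 2 and 18 had 3. Gm25063, a miRNA gene on the X chromosome, had 4, with scores from 15.4 to 74.8. The processed transcript 2900041M22Rik on chromosome 11 had 5, with scores of 91.7, 57.4, 37.8, 8.51 and 2.64, and no promoter summit of its own. Of these, the summits at 57.4 and 37.8 lay 527 and 97 bp from a RefSeq TSS of Gm35170. Those at 91.7 and 2.64 lay inside a RefSeq transcript, and the one at 8.51 lay outside. Density differed between chromosomes, from 1.24 per Mb on the X to 6.26 per Mb on chromosome 11. The mice were male, with 1 copy of the X, and the part of copy number in its density was not tested.

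CpG-rich DNA was more frequent under the summits than in eligible sequence at large. A 300 bp window was called CpG-rich at a GC content of at least 50% and an observed over expected CpG ratio of at least 0.6. This held for 351 of the summits (24.4%, 22.3 to 26.7), for 18.6% (16.1 to 21.3) beyond 20 kb, for 56% at promoters and for 0.461% of 241825 windows spaced evenly over eligible sequence. The median CpG ratio was 0.504, beside 0.49 beyond 20 kb, 0.651 at promoters and 0.142 in the spaced windows, and the median GC content 53.7%, 50.7%, 61.3% and 41.7% in the same order. In windows of 1000 bp, 14.1% of the summits were CpG-rich. Windows with over 50% repeat-masked bases made up 1.95% of the summits and 35.3% of the spaced windows. The authors kept uniquely mapped reads only, and the part of read mapping in this difference was not tested. CpG-rich summits became more frequent with score, from 13.4% (10.7 to 16.7) under a score of 10 to 22.9% at 10 to 30, 31.7% at 30 to 100, 43.4% at 100 to 150 and 47% (36.6 to 57.6) above 150. Across the 1436 summits the Spearman correlation of score was 0.278 with the CpG ratio and 0.266 with GC content.

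Short sequence patterns bound by known factors were counted on both strands of the same windows. GGGCGG, the GC box bound by SP factors, was in 26.3% (24 to 28.6) of the summits, 22.4% (19.7 to 25.3) of those beyond 20 kb, 39.6% of promoter summits and 2.42% of the spaced windows. CCGGAAG, an ETS pattern, was in 6.06% (4.94 to 7.41), 3.59% (2.53 to 5.08), 6.02% and 0.764% in the same order. TGACGTCA, the full cAMP response element bound by CREB, was in 17 summits (1.18%, 0.74 to 1.89), in 0.719% (0.33 to 1.56) of those beyond 20 kb, in 0.464% (0.373 to 0.577) of promoter summits and in 0.149% of the spaced windows. GCGTGGGCG, bound by EGR proteins, was in 14 (0.975%, 0.582 to 1.63), beside 0.24% (0.0657 to 0.869) beyond 20 kb, 0.666% at promoters and 0.0136% of the spaced windows. The CTCF core was in 11 (0.766%, 0.428 to 1.37), beside 0.599% (0.256 to 1.39), 0.168% and 0.153%. For each of these 5 patterns the intervals of both intergenic sets overlapped. Of the others, CAGCTG, an E-box, was in 22.6% of the summits within 20 kb, beside 10.1% of the spaced windows. The AT-rich TATAAA was in 8.43% beside 26.8%, CCAAT in 29.7% beside 42.5% and TGANTCA, the AP-1 pattern, in 6.62% beside 8.79%. The MEF2 pattern was in 0.627% beside 0.601%, AAGATGGCG, a YY1 pattern, in 0.279% beside 0.359%, and the left and right sites of RE1 in 0.487% and 6.96% beside 0.303% and 5.31%. The summits and the spaced windows differ in base composition, and its part in these shares was not tested.

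The highest-scoring summit with a CTCF core, the pattern of the insulator protein CTCF, lay 4769 bp upstream of Gm42458, a gene model of type TEC that awaits experimental proof, and scored 134.9 (chr6:127330476-127330775, plus strand of GRCm38). The core is in capitals, near the right end of the window.
Gm42458: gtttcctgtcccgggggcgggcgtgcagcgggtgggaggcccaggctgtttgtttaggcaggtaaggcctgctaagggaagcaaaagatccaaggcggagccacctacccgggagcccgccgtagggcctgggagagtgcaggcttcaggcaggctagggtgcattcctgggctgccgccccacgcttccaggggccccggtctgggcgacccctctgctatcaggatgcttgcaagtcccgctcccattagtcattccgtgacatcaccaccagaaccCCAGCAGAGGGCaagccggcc

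Summits at genes of RNA polymerase III were frequent at the top of the score order. The RefSeq annotation used here lists 403 tRNA genes on the chromosomes used, none of them on chromosome 18, and 64 of the 1436 summits (4.46%, 3.51 to 5.65) lay within 1 kb of the 5′ end of one. Such summits were 1.2% (10 of 835) of those beyond 20 kb and 0.261% of promoter summits. The 10 beyond 20 kb also scored high, with a median of 170.7 (87.6 to 222.8), and 8 of them reached the median of the list. The 64 within 20 kb had a median score of 152.6 (114.7 to 182.9), with quartiles of 88.8 and 210.9 and a range of 4.26 to 296.0. Of these 64, 45 (70.3%) reached the median of the list. The 214 summits within 1 kb of another RefSeq TSS had a median of 20.3 (16.7 to 29.4), the 153 inside a RefSeq transcript one of 20 (14.4 to 26) and the 1005 outside RefSeq transcripts one of 15.4 (13.4 to 16.4). Summits at tRNA genes were 11 of the 20 highest scores, 26 of the 50 highest and 37 of the 100 highest. They lay at 236.8 per Mb in the 0.27 Mb of eligible sequence within 1 kb of tRNA genes, and the other summits at 2.84 per Mb elsewhere. The 64 summits had 64 different nearest tRNA genes, 21 of them on chromosome 13.

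**Figure D3:**
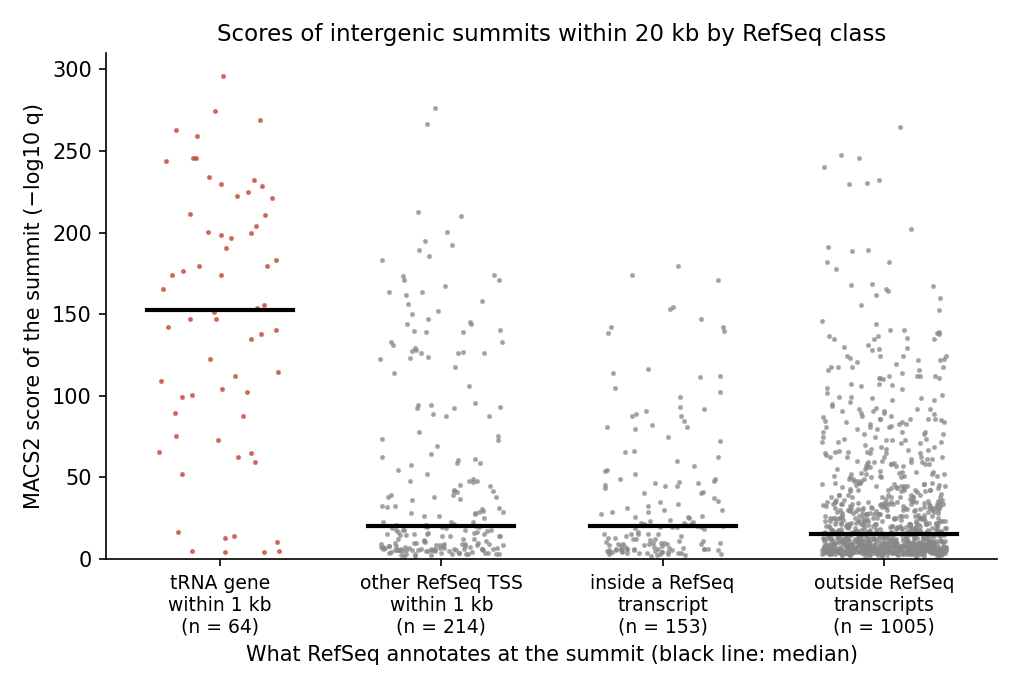
MACS2 score (y axis, −log10 q) of each intergenic summit within 20 kb, grouped by what RefSeq annotates there (x axis), with a black line at each median. The 64 summits at tRNA genes have a median of 152.6, and the other classes, with 214, 153 and 1005 summits, have medians of 20.3, 20 and 15.4 with upper tails that overlap the tRNA class.

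The summits stood beside the tRNA genes and not on them. Their distance from the tRNA 5′ end was 130 to 885 bp with a median of 302 bp, and 47 of 64 lay at 200 to 400 bp. The tRNA genes themselves were 71 to 107 bp long, and 0 of the 64 summits were inside one or within 100 bp of its 5′ end. Upstream summits numbered 47, with a median score of 151.2 (112.4 to 198.4), and downstream summits 17, with one of 155.7 (99 to 182.9). The authors kept uniquely mapped reads only, and 42 of the 64 tRNA genes had an identical copy elsewhere in the genome, beside 238 of all 403. Of the tRNA genes with an identical copy 55.9% (49.5 to 62) had a summit of any kind within 1 kb, and of those without 42.4% (35.1 to 50.1). The part of read mapping in the position of these summits was not tested.

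**Figure D4:**
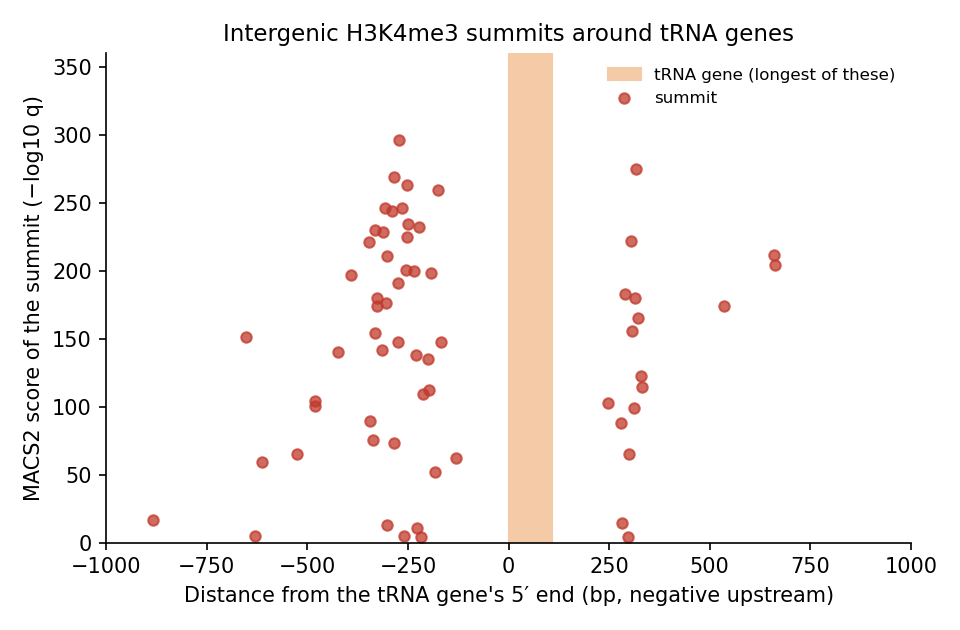
MACS2 score (y axis, −log10 q) of the 64 summits near tRNA genes against their signed distance from the tRNA gene's 5′ end (x axis, bp, negative upstream), with the shaded band as long as the longest of these genes, 107 bp. The points gather on both sides at 200 to 400 bp and leave the gene itself empty.

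About as many tRNA genes had a summit near them as had none. Of the 403, 203 (50.4%, 45.5 to 55.2) had a summit of any kind within 1 kb, and of the 169 that lay in eligible sequence 88 (52.1%, 44.6 to 59.5) had an intergenic summit within 20 kb of a GENCODE TSS. All 20 amino acid classes had at least 1 such gene. Cysteine tRNA genes, the largest class with 57 copies, had a summit of any kind at 1 of 15 genes in eligible sequence (6.67%, 1.19 to 29.8), serine tRNA genes at 1 of 9, and all tRNA genes other than cysteine at 90 of 154 (58.4%, 50.5 to 65.9). The letters of the B box, GTTCAANNC or GTTCGANNC, to which the polymerase III factor TFIIIC binds, were present in 371 of the 403 and in 61 of the 64 nearest to a summit.

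The tRNA summits among the 20 highest scores were nearest in GENCODE to genes of many kinds. The histidine gene n-THgtg8 had a summit at 268.8 lying 284 bp upstream of it, and the glycine gene n-TGtcc2 one at 263.0 lying 253 bp upstream. The aspartate gene n-TDgtc5 had a summit at 259.1, nearest in GENCODE to Cfap126, a cilium gene. On chromosome 13, the glutamate gene n-TEctc11 and the glycine gene n-TGgcc7 had summits that both scored 245.7, nearest to the olfactory receptor gene Olfr1368, without a promoter summit, and to the histone gene Hist1h2bl, with one. The lysine gene n-TKctt14 (243.8), a second aspartate gene, n-TDgtc16 (234.2), the leucine gene n-TLcag10 (232.3) and a second histidine gene, n-THgtg4 (229.5), completed the tRNA genes at the 20 highest scores. The summit nearest to Wnt11, which encodes a Wnt ligand, scored 210.8 and lay 302 bp from the proline gene n-TPtgg8 and 19999 bp from the Wnt11 TSS.

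Some of the strongest summits lay at start sites that only RefSeq holds. The Gm26779 summit lay 164 bp from a RefSeq TSS of AB010352. Upstream of Zfp869, a zinc finger gene without a GENCODE promoter summit, a summit 5999 bp away scored 266.8 and lay 114 bp from a RefSeq TSS of Zfp869 itself. The summit 13277 bp upstream of Gpr161, an orphan receptor of the primary cilium, scored 210.1 and lay 127 bp from a RefSeq TSS of Gpr161. These were 2 of the 5 highest summits upstream of a coding gene with no GENCODE promoter summit, and the other 3, nearest to Fam83a, Olfr1368 and Rnase4 (220.9), lay at tRNA genes.

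The 1005 summits outside RefSeq transcripts included 7 of the 20 highest scores. The strongest, 5921 bp upstream of Trp53rkb, which encodes a p53-related kinase, scored 264.9. On chromosome 6, summits 4420 bp downstream of the lincRNA TSS of Gm44066 and 15794 bp downstream of the pseudogene Gm43907 scored 247.6 and 240.0, with CpG ratios of 1.05 and 1.04. Others were nearest to the lincRNA gene Gm44738 (245.7), the pseudogene Rpl30-ps6 (230.4) and the processed transcript Gm20539 (229.7). Upstream of Mir7-2, 1 of the genes of the neuronal and endocrine microRNA miR-7, 3 summits lay at 6224, 4906 and 2070 bp with scores of 29.9, 232.3 and 56.9, and GENCODE and RefSeq place no transcript over them.

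Genes induced by neuronal activity had the highest density of these summits among 10 gene lists. Of 44 annotated activity-regulated genes, 13 (29.5%, 18.2 to 44.2) were the nearest gene of at least 1 summit, beside 2.76% of all protein-coding genes. They had 18 summits in 0.541 Mb, or 33.3 per Mb (19.7 to 52.6), beside 4.19 per Mb (3.88 to 4.52) near all protein-coding genes, and the median score was 38.4 beside 19.4. The interval of their density overlapped those of the homeobox and Pax, the Sox and Fox and the glial lists. All 13 genes had a promoter summit as well, as had 42 of the 44.

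Fos, the immediate early gene of the AP-1 transcription factor subunit c-Fos, had 3 summits under the rule. They lay 10921 bp downstream of its TSS with a score of 202.1, 18229 bp upstream with 87.6 and 1449 bp upstream with 42.1. Of these 3 the distal ones scored highest. The rule leaves out the promoter summit that Fos also had, and its score was not compared. The summit 18229 bp upstream lay inside a RefSeq transcript. The downstream window (chr12:85485682-85485981, plus strand of GRCm38) follows with its 12 CpGs in capitals.
Fos: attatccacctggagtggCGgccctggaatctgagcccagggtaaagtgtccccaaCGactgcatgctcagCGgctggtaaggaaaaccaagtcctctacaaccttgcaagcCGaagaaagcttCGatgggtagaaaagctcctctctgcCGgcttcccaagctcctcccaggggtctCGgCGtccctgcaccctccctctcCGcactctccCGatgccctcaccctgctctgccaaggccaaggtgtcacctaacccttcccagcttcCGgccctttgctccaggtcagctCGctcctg

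The orphan nuclear receptor genes Nr4a3 and Nr4a1 and the zinc finger gene Egr3, all immediate early transcription factors, had upstream summits. Among these, only the Nr4a3 summit scored above 102.3, the median of the list. The Nr4a3 summit, 2291 bp upstream, scored 181.7, the Egr3 summit, 2088 bp upstream, scored 98.7, and Nr4a1 had one 7605 bp upstream at 99.0 and one 13134 bp upstream at 34.9. Gadd45b, which is known for activity-induced DNA demethylation, had a summit 1217 bp upstream at 110.7 and one 9127 bp downstream at 8.2. Junb, a further AP-1 subunit gene, had summits 1086 and 1661 bp upstream at 65.2 and 32.4, and Btg2, an antiproliferative gene, had one 17862 bp downstream at 41.9 that lay 311 bp from a RefSeq TSS of Gm19497. Arc, which encodes a synaptic protein made upon activity, had 1 summit 6902 bp upstream at 22.9, and the secretogranin gene Scg2 had 1 at 10447 bp upstream at 31.3. The Arc summit lay inside a RefSeq transcript. The phosphatase genes Dusp6 and Dusp4 had summits at 17.7 and 7.12, the early response gene Ier2 had 1 at 10.8 and Egr1 had 1 at 9.34.

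Developmental transcription factors and glial genes came next. Of 93 homeobox and Pax genes, 12 (12.9%, 7.54 to 21.2) had a summit, with 16.6 per Mb (9.87 to 26.3) and a median score of 10.9. The 40 Sox and Fox genes had 5 summits at 4 genes (17.8 per Mb, 5.77 to 41.5), with a median score of 13.2. Of these 5, 2 lay 420 bp apart near Sox12. The bHLH, nuclear receptor and other forebrain factors had summits at 6 of 69 genes, with 8.82 per Mb (3.81 to 17.4), an interval that includes the 4.19 of all protein-coding genes. The strongest were 5293 bp upstream of Sox4, a factor of neuronal differentiation (154.7), 10804 bp downstream of the neural factor gene Pou3f2 (61.0), 1521 bp upstream of Id2, an inhibitor of bHLH factors (59.5), and 8252 bp upstream of Meis1 (52.4). The Sox4 summit lay inside a RefSeq transcript and 1033 bp from a RefSeq TSS of Gm46405. The Sox4 and Pou3f2 genes had no promoter summit under the 1 kb limit. Oligodendrocyte and astrocyte genes had 5 summits at 4 of 38 genes (15.4 per Mb, 5 to 35.9), among them 1 at 138.4 lying 5527 bp upstream of Mog, which encodes a myelin protein, and a pair downstream of the TSS of Slc1a3, the glial glutamate transporter, at 32.6 and 17.8.

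The 2 highest summits of the transcription factor lists are shown with CpGs in capitals, Sox4 at chr13:28958856-28959155 with 13 CpGs and Pou3f2 at chr4:22477412-22477711 with 16, both from the plus strand of GRCm38.
Sox4: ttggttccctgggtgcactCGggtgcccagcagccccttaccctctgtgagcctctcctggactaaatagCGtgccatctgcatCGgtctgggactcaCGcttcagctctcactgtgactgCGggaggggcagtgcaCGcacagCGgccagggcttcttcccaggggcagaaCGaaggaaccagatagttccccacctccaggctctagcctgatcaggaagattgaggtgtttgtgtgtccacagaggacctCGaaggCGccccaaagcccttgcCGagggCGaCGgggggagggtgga
Pou3f2: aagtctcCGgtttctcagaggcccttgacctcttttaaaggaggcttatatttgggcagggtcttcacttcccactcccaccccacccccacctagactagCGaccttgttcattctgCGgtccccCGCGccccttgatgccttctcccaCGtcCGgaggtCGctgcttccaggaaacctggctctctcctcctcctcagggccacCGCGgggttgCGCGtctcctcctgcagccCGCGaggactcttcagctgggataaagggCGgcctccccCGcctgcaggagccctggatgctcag

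Genes of signalling between neurons and of growth factor ligands had these summits at shares whose intervals included that of coding genes in general, 2.76%. Summits were near 2 of 78 ion channel and transmitter receptor genes (2.56%, 0.706 to 8.88), among them the potassium channel gene Kcna6 (25.5). They were near 3 of 63 peptide and amine receptor genes (4.76%, 1.63 to 13.1), Adrb1 (12.2), Drd5 (10.4) and Htr2c (3.63), and near 1 of 42 neuropeptide genes (2.38%, 0.422 to 12.3), Sst, which encodes somatostatin (11.6). The Kcna6 and Adrb1 summits lay inside RefSeq transcripts. Of 68 axon guidance and adhesion genes, 1 had summits (1.47%, 0.26 to 7.87), Nlgn3, which encodes the synaptic protein neuroligin 3 and had 2 (49.2 and 39.3). Of 49 Wnt, Fgf, Bmp and growth factor genes, 3 had one (6.12%, 2.1 to 16.5), Wnt11, Wnt2b (78.0) and Wnt2 (15.2). Promoter summits were present at 76 of the 78, 60 of the 63, 26 of the 42, 60 of the 68 and 45 of the 49 genes. The densities of these 5 lists, from 1.89 to 5.04 per Mb, had intervals that included the 4.19 per Mb of all protein-coding genes. Each list had only 1 to 3 summits, so the intervals were wide. The shares do not allow for eligible sequence, which had a median of 9.7 to 16.9 kb per gene in these lists, beside 4.4 kb for all protein-coding genes.

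**Figure D5:**
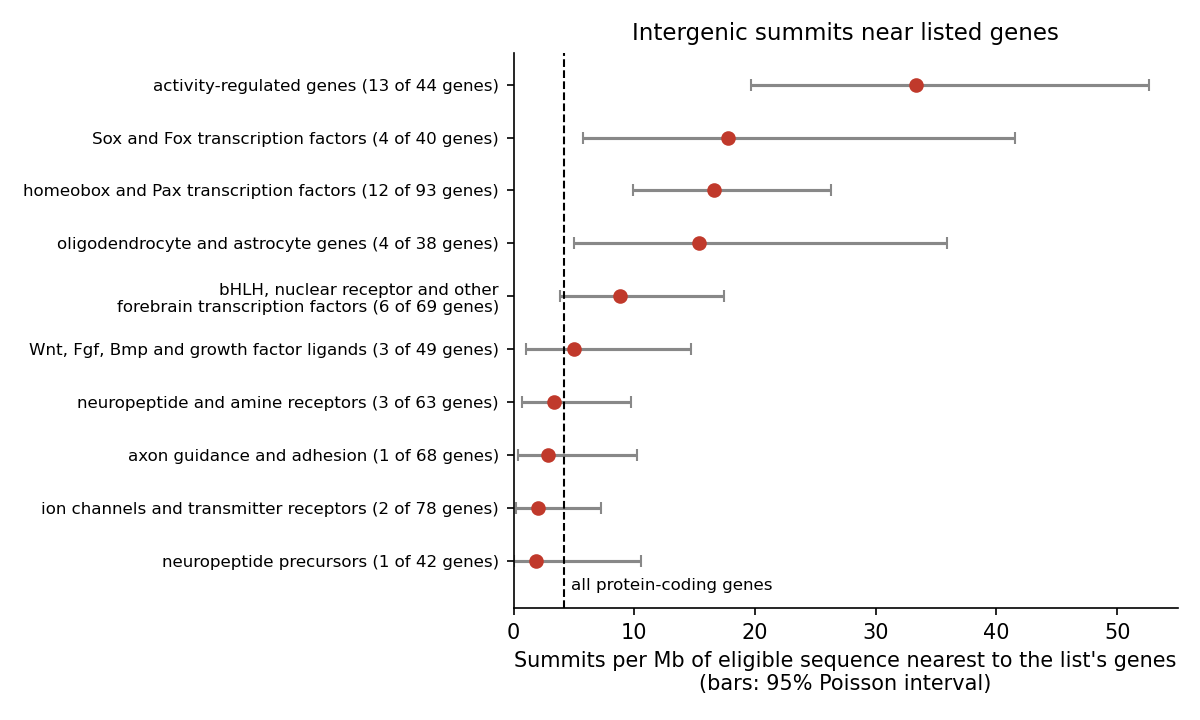
Intergenic summits per Mb of eligible sequence nearest to the genes of each list (x axis, points with 95% Poisson intervals) for 10 lists (y axis, with the number of genes that had a summit). The activity-regulated genes lie at 33.3 per Mb, and the dashed line marks 4.19 per Mb for all protein-coding genes.

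At the limits of the rule the summits were not of 1 kind. Just inside 1 kb, summits 1011, 1012 and 1013 bp upstream of Gm48847, Ormdl3 and Mex3a scored 6.54, 17.2 and 167.0, and just outside it, summits 999, 999 and 995 bp upstream of Lamp5, Ski and Gm10775 scored 5.97, 119.3 and 91.9. Just inside 20 kb, summits 19999, 19996 and 19995 bp from Wnt11, Gm12746 and Ppp2r5e scored 210.8, 7.95 and 6.04, and just outside it, summits 20028, 20056 and 20087 bp from Gm13000, Gm24841 and Gm22024 scored 2.84, 32.6 and 34.6. The Mex3a summit lay 498 bp from a RefSeq TSS of Gm38618. The Gm12746 and Ppp2r5e summits lay 420 and 493 bp from RefSeq TSSs of Gm31065 and Gm34666.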

How the data were processed

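Native H3K4me3 ChIP-seq reads of the 2 WT mice were, as the paper's methods describe, aligned by the authors to mm10 with Bowtie, restricted to unique alignments and passed to MACS2 (2.1.0.20140616) with input as control. The authors deposited 1 list for both mice, in which each line spans 1 bp and holds a score, taken as −log10 of the q-value. The methods describe removal of black-list regions for the peak set common to all genotypes and do not say whether this list was filtered. They give read totals over all samples, and the list gives no read count behind a score. 

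Summits were placed on GENCODE M21 (GRCm38). Eligible sequence was sampled every 100 bp, and windows were taken at every 20th of these positions. tRNA genes and further start sites came from RefSeq (GRCm38.p6). Shares carry 95% Wilson intervals, medians order-statistic intervals and densities exact Poisson intervals. No p-value is given, since summits of 1 pooled list are not replicates. Functions were tested on simulated data. Python 3.11.15, numpy 2.4.6, pandas 2.3.3, scipy 1.17.1 and matplotlib 3.10.9 were used.

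Members, gene lists and comparisons were chosen with earlier results of these data known. Named are the genes at the 20 highest scores, the 5 highest upstream of coding genes without a promoter summit, the 3 highest of each list, the 3 on each side of both limits and the gene with most summits. Chosen after their values were seen were the RefSeq and tRNA classes and the tRNA genes named, all activity-regulated genes beyond the first 3 summits, Mir7-2, Gm25063, the summits outside RefSeq transcripts and the Fos sequence. Some items that the naming rule or these choices would give are not reported here. Cyr61 is not a GENCODE M21 symbol and was not counted.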

Additional observations from a re-analysis of the deposited data

How the results depend on the processing

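Of 66 values computed under alternatives for 8 results, 40 stayed within the interval of the reported value (for the number of summits, within 1.5 times of it) and 26 moved beyond it. Joining summits within 1 kb moved only the share with another summit within 2 kb, to 6.02%, and leaving out summits at tRNA genes, chosen after seeing the data, moved none of the 8.

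Scores of at least 10 left 943 summits, with a median score of 33.9, another summit within 2 kb at 8.59% and 30.2% CpG-rich. Scores at or above the list's median left 179, with values of 143.9, 4.47% and 45.3% and a coding nearest gene for 54.7%. Both cuts were made on the whole list, so neighbours scoring under the cut were not counted in the shares within 2 kb. With protein-coding transcripts only, the median score was 21.2 and 77.3% were upstream. The interval of that share, 75.1 to 79.4, included the 78.4% of eligible positions, so the excess was lost. Under this setting the nearest gene was coding by construction for 100% and had a promoter summit for 76.9%. Another summit lay within 2 kb for 17.9%, and 29.9% were CpG-rich. A downstream region of 300 bp gave 65.5% upstream, beside 61.1% of eligible positions. A limit of over 2 kb gave 70.7% upstream and 10.5% with another summit within 2 kb. Adding RefSeq transcripts and tRNA genes, chosen after seeing the data, left 1085 summits with a median score of 15.4, a coding nearest gene for 39.6%, a promoter summit at that gene for 39.4% and another summit within 2 kb for 11.4%. A window of 1000 bp gave 14.1% CpG-rich. Another summit lay within 1 kb for 7.31% and within 5 kb for 26.1%. The ratio of densities near and far from TSSs ranged from 1.5 to 2. Apart from changes made by construction, the cause was not tested.

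No paired analysis was possible because the WT list pools both mice, and for the same reason no replicate was left out. The list gives no read count behind a score.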
